A study of Mus musculus with 6 samples.

Results

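The IkB family was examined in a mouse macrophage line as the 6 genes Nfkbia, Nfkbib, Nfkbie, Nfkbid, Nfkbiz and Bcl3, taken by gene symbol from a table of 21047 genes. All 6 passed the filter on low values and were tested. The libraries were made from RNA of immortalised bone-marrow-derived macrophages (iBMDM), 3 of the wild-type line (WT) and 3 of a line labelled A20KO, in which Tnfaip3, the gene for the ubiquitin-editing enzyme A20, was targeted. The labels name no treatment, age, culture or clone, so the A20KO line may or may not be a clone, and the 3 libraries of a line may or may not be separate cultures. The p-values therefore speak of the spread among these 6 libraries, part or all of which may be technical. Values are normalized read counts, read counts divided by a size factor for each library, unless stated otherwise. Changes are log2 fold changes, A20KO over WT, of the normalized read count + 1, tested with limma over all genes with Benjamini-Hochberg adjustment.

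IkB proteins contain ankyrin repeats with which they bind dimers of NF-kB, the transcription factor family that drives inflammatory gene expression. The classical members IkB-alpha (Nfkbia), IkB-beta (Nfkbib) and IkB-epsilon (Nfkbie) hold NF-kB in the cytoplasm until the IKK kinase marks them for ubiquitination and degradation, and resynthesis of IkB-alpha from its NF-kB-induced gene ends the response. The nuclear or atypical members IkB-NS (Nfkbid), IkB-zeta (Nfkbiz) and BCL-3 (Bcl3) act in the nucleus, mostly on dimers that contain the p50 or p52 subunit, and raise or lower transcription of chosen targets. Several of the 6 genes are themselves induced by NF-kB, and A20 acts upstream as a brake on signalling to IKK.

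Promoter windows from RefSeq, on build GRCm38.p6 and running from 250 bases before to 50 bases after a gene's start, were available for 5 of the 6 members, and Nfkbiz had none. They are shown because the members differ in how far their transcripts fell, and kB sites are the DNA elements that NF-kB binds. Capitals mark matches, on either strand, to the kB consensus or to the looser pattern GGNNNTTCC, which can overlap. The windows lie at chr12:55492598-55492897 on the minus strand (Nfkbia), chr7:19822706-19823005 on the minus strand (Bcl3), chr7:30422156-30422455 on the plus strand (the second of 3 Nfkbid starts), chr7:28766595-28766894 on the minus strand (Nfkbib) and chr17:45555450-45555749 on the plus strand (Nfkbie).
Nfkbia: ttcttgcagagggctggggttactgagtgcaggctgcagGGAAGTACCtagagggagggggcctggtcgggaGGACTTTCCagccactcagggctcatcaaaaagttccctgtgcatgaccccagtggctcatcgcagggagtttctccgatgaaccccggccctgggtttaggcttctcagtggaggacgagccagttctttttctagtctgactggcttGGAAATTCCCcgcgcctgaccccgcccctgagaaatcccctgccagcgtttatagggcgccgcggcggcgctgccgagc
Bcl3: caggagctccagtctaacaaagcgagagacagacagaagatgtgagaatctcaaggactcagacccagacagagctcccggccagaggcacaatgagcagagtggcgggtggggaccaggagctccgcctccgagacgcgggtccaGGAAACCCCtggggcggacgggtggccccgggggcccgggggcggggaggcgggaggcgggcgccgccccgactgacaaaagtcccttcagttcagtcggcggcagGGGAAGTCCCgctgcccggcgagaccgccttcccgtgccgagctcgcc
Nfkbid: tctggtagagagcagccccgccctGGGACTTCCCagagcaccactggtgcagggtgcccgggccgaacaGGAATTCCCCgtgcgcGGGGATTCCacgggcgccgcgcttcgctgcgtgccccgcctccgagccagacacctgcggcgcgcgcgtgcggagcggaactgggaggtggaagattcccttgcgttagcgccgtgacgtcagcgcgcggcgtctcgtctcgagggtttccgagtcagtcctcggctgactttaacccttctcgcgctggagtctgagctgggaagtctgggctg
Nfkbib: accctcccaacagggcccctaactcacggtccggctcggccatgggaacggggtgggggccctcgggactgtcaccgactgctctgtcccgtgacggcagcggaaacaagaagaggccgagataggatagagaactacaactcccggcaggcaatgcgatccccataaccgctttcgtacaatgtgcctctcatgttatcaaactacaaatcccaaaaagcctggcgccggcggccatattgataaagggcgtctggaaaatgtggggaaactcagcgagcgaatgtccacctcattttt
Nfkbie: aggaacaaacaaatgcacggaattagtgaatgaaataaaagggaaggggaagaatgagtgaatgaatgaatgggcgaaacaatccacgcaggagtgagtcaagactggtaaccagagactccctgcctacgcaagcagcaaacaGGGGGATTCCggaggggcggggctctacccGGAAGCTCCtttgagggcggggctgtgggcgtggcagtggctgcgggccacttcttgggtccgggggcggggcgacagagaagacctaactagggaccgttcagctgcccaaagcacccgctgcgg

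Among all 32851 windows of the same length, 4.51% held a match to the kB consensus and 18.5% held the looser pattern. The Nfkbia window held 1 consensus match, GGAAATTCCC, at -29 to -20 from the start and matching on the opposite strand, and 3 matches to the looser pattern. The Bcl3 window held 1 consensus match, GGGAAGTCCC, at 3 to 12 after the start and also on the opposite strand. Of the 3 Nfkbid windows the second, whose start lies 674 bases past the gene start in the deposited table, held 2 consensus matches, GGGACTTCCC at -226 to -217 and, on the opposite strand, GGAATTCCCC at -181 to -172, and the other two held none; the window at the deposited start held no match to either pattern. The Nfkbie window held 1 consensus match, GGGGGATTCC at -106 to -97, and the Nfkbib window held neither pattern. Matches to the looser pattern numbered 2 in the Bcl3 window and 2 in the Nfkbie window. The second Nfkbid window held 3 of them and the third held 1. The start of the Nfkbib window lies 868 bases past the gene start in the deposited table, which it does not cover. A match was therefore present for Nfkbia and Bcl3, which fell by more than 2 log2 units, and also for Nfkbie, which did not pass the test. Nfkbid (log2 fold change -1.01) had matches to the consensus at 1 of its 3 starts. Nfkbib fell with no match, and Nfkbiz, which fell furthest, had no window. A relation between matches and falls was not tested. The matches are letter matches and not measured binding.

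In every classical and nuclear gene but Nfkbie the transcript was lower in A20KO, and no member was higher. Of the 6 members 5 fell and 1 did not pass, while 19.6% of the 17376 tested genes passed as lower, 20.3% as higher and 39.8% in either direction at the threshold of 0.05. At least 2-fold falls were found in 4 of the 6 members, against 4.01% of tested genes, and Nfkbid sat at that limit. The genotypes' values did not overlap for 5 of 6 members, against 46.9% of tested genes in either direction and 22.4% in the lower one. The median log2 fold change was -1.58 over the 6 members and 0.011 over all tested genes. By class, 2 of 3 classical members fell (class median -0.38) and 3 of 3 nuclear members fell (class median -2.15). With 3 genes in each class these medians describe the genes only, and the spread inside each class was wide.

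**Figure D1:**
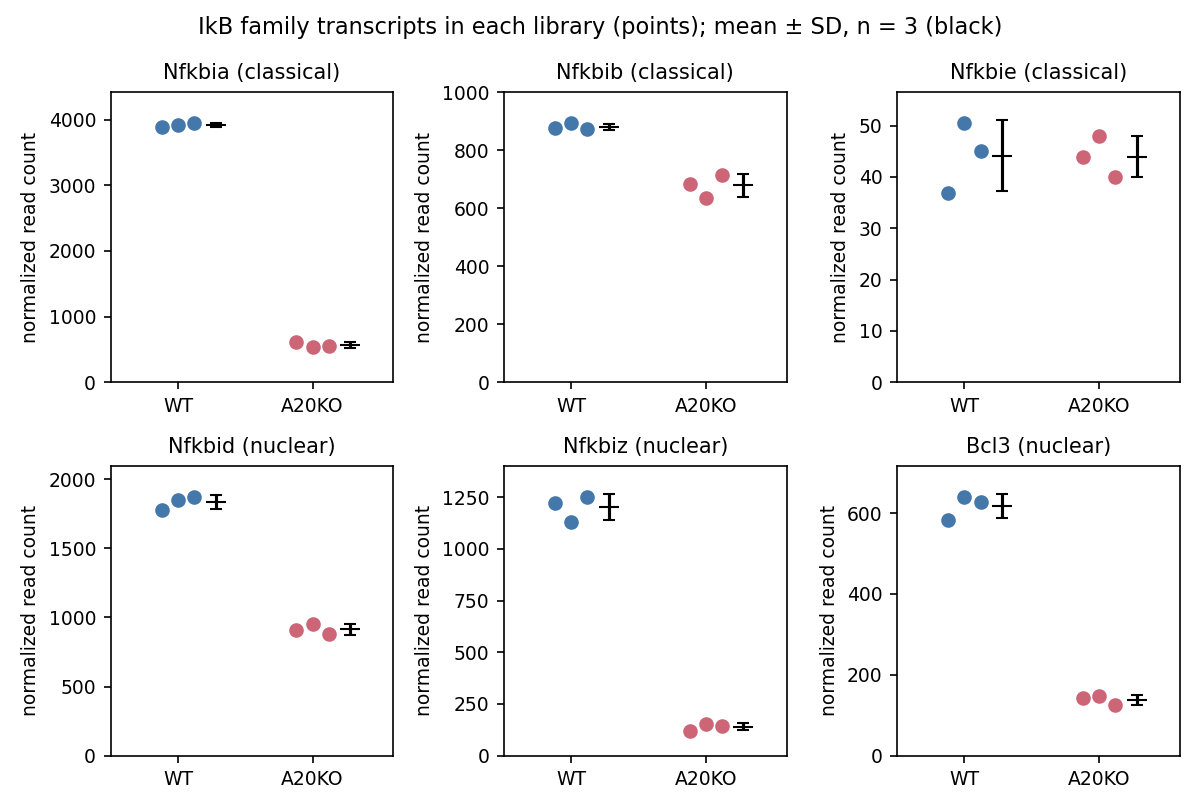
Normalized read count (y axis, from 0) of each IkB family gene in the 3 WT and 3 A20KO libraries, with each point a library and the black mark the mean ± SD. The A20KO points lie below all WT points for every gene but Nfkbie, whose points overlap.

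Among the classical genes, Nfkbia had by far the highest level and the largest fall. Nfkbia (ENSMUSG00000021025) is at chromosome 12, 55489410 to 55492647, minus strand (mm10), and encodes the inhibitor that is degraded and resynthesised in each round of NF-kB signalling. WT libraries 1 to 3 gave 3890.1, 3924 and 3946 normalized reads, and A20KO libraries 1 to 3 gave 613, 531 and 547. The WT libraries were almost level, and every A20KO library was several-fold below them. A20KO retained 14.4% of the WT mean, a log2 fold change of -2.8 (95% interval -2.9 to -2.69, SE 0.0528, limma adjusted p = 8.3e-49). Only 0.535% of tested genes had a more negative log2 fold change. The SD over replicates was 0.725% of the mean in WT and 7.66% in A20KO, where counting error alone gives 1.59% and 4.21%.

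Nfkbib fell modestly. Nfkbib (ENSMUSG00000030595), at chromosome 7, 28758251 to 28767512, minus strand, encodes IkB-beta, which is known for slower and more lasting control of NF-kB than IkB-alpha. Normalized reads per library were 875, 893 and 874 in WT and 683, 636 and 715 in A20KO. All A20KO libraries lay below the WT libraries, but the gap was small, with A20KO at 77% of the WT mean. The log2 fold change was -0.38 (95% interval -0.51 to -0.25, SE 0.0651, limma adjusted p = 1.7e-06), and 20.8% of tested genes fell further. Of its 2169 exon bases 16.4% overlap exons of Ccer2 and Sirt2 on the opposite strand, and with the use of strand not given in the sources used here their reads cannot be told apart. Sirt2 had a normalized read count of 647 ± 47.3 in WT and 596 ± 26.3 in A20KO (SD, n = 3, limma adjusted p = 0.21), and Ccer2 averaged 0.673 and 2 normalized reads.

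Nfkbie did not pass the test. Nfkbie (ENSMUSG00000023947), at chromosome 17, 45555703 to 45563169, plus strand, encodes IkB-epsilon, an inhibitor that in mouse cells acts later than IkB-alpha. It was the least abundant member, with 36.9, 50.5 and 45.1 normalized reads in WT and 43.9, 47.9 and 39.9 in A20KO. The 2 genotypes overlapped and their means, 44.2 and 43.9, were nearly equal. The log2 fold change was -0.00032 (95% interval -0.48 to 0.48, limma adjusted p = 0.999). With 38 to 53 reads in each library, a change inside that interval is not excluded, and the interval does not reach the falls of Nfkbia, Nfkbid, Nfkbiz or Bcl3.

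All 3 nuclear genes fell, to very different degrees. Nfkbiz (ENSMUSG00000035356), at chromosome 16, 55811375 to 55838899, minus strand, encodes IkB-zeta, which is needed in mouse macrophages for a set of late inflammatory genes. The WT libraries gave 1223, 1129.5 and 1253 normalized reads, and the A20KO libraries gave 120, 154 and 145. It fell further than any other member, to 11.6% of the WT mean, with no overlap between genotypes. The log2 fold change was -3.1 (95% interval -3.28 to -2.93, SE 0.089, limma adjusted p = 5.3e-39), and 0.397% of tested genes fell further. Its interval lies just below that of Nfkbia, the classical feedback inhibitor (upper end -2.93 against a lower end of -2.9 for Nfkbia). The 2 genes were not compared by a test.

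Bcl3 (ENSMUSG00000053175), at chromosome 7, 19808462 to 19822770, minus strand, encodes a partner of p50 and p52 homodimers that was first known from B cell leukaemia. Normalized reads per library were 584, 641 and 627 in WT and 143, 148 and 125 in A20KO. Every A20KO library lay far below the lowest WT library, at 22.5% of the WT mean on average. The log2 fold change was -2.15 (95% interval -2.35 to -1.95, SE 0.1, limma adjusted p = 5.2e-28), with a larger fall in 1.09% of tested genes. Of its exon bases 6.51% overlap the opposite-strand gene Gm16175, which averaged 3.89 normalized reads in WT and had none in A20KO.

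Nfkbid (ENSMUSG00000036931), at chromosome 7, 30421732 to 30428746, plus strand, encodes IkB-NS, which in mouse macrophages limits some inflammatory genes and in B and T cells supports development. Normalized reads per library were 1776, 1846 and 1873 in WT and 906, 953 and 878 in A20KO. The genotypes did not overlap and A20KO stood at 49.8% of the WT mean. The log2 fold change was -1.01 (95% interval -1.11 to -0.9, SE 0.0537, limma adjusted p = 4.8e-25), and 6.38% of tested genes fell further. The fall of Nfkbid was thus smaller than those of Nfkbiz and Bcl3, its interval lying outside both of theirs.

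**Figure D2:**
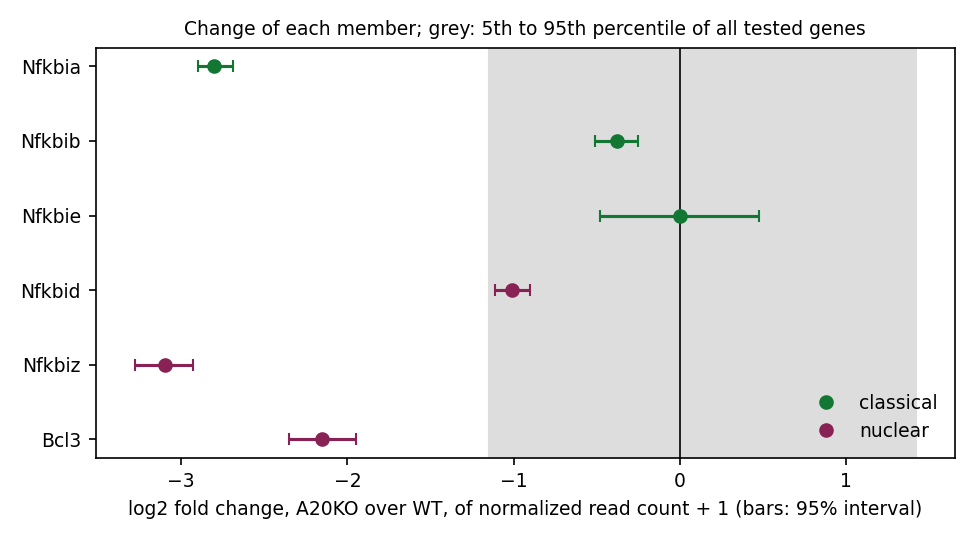
Log2 fold change, A20KO over WT, of each member (x axis) with its 95% interval from limma, classical genes in green and nuclear genes in purple. Nfkbia, Nfkbiz and Bcl3 lie beyond the grey band, which spans the 5th to 95th percentile of all tested genes (-1.15 to 1.42), while Nfkbid, Nfkbib and Nfkbie lie inside it.

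The changes did not divide along the line between classical and nuclear members. Nfkbia, a classical gene, lay between the nuclear genes Nfkbiz and Bcl3, and the nuclear gene Nfkbid lay between Bcl3 and the classical gene Nfkbib. To compare levels between genes, normalized reads were divided by gene length in kilobases. In WT the order was Nfkbia (2435 ± 17.6 normalized reads per kilobase, SD, n = 3), Nfkbid (781 ± 21.3), Nfkbib (406 ± 4.97), Bcl3 (249 ± 11.9), Nfkbiz (240 ± 12.9) and Nfkbie (14.5 ± 2.25). Bcl3 and Nfkbiz overlapped between libraries, and each other step in that order was larger than the spread. In A20KO the order was Nfkbid (389 ± 16), Nfkbia (350 ± 26.8), Nfkbib (313 ± 18.5), Bcl3 (56 ± 4.87), Nfkbiz (27.8 ± 3.47) and Nfkbie (14.4 ± 1.31). Here Nfkbid and Nfkbia overlapped between libraries, the lowest Nfkbia and the highest Nfkbib value were equal at 330 as printed, and the lower neighbours did not overlap.

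The make-up of the family's transcripts differed between the lines, as did their summed amount. The summed length-scaled level of the 6 genes was 4069, 4137 and 4170.4 normalized reads per kilobase in WT and 1178, 1135 and 1137 in A20KO, so A20KO held 27.9% of the WT mean. Nfkbia made up 59.4%, 58.9% and 58.8% of that sum in WT and 32.3%, 29.1% and 29.9% in A20KO. Nfkbib made up 9.84% ± 0.162 (SD, n = 3) in WT and 27.2% ± 1.65 in A20KO, although its own level was lower there. For Nfkbid the shares were 18.9% ± 0.282 and 33.8% ± 1.68. The share of Nfkbiz was 5.81% ± 0.316 in WT and 2.42% ± 0.349 in A20KO. No test was run on these shares, which are scores over chosen genes.

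**Figure D3:**
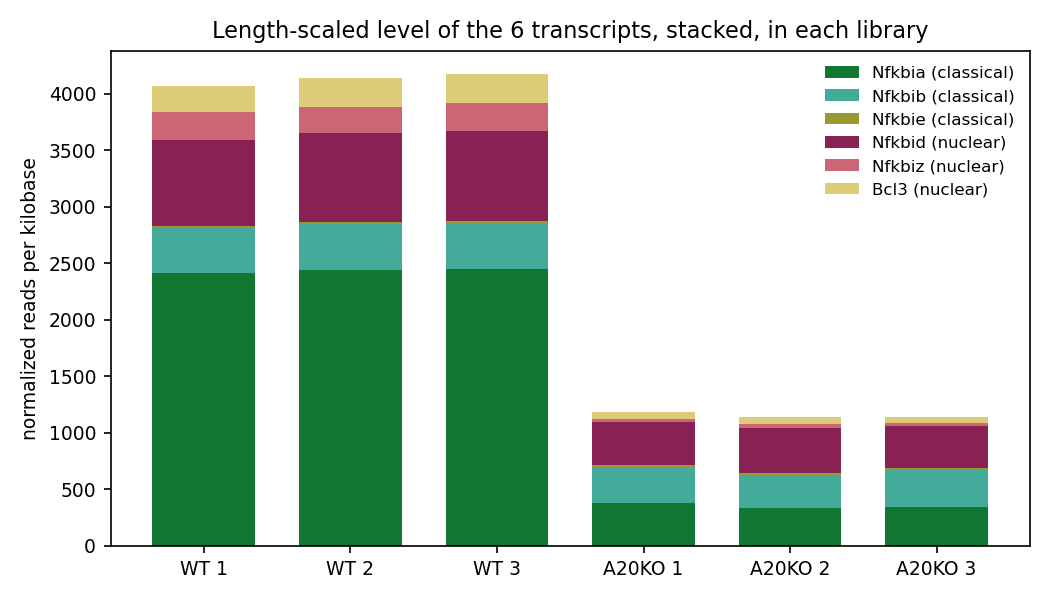
Length-scaled level (normalized reads per kilobase, y axis from 0) of the 6 transcripts stacked in each library. The WT columns reach 4069 to 4170.4 and are mostly Nfkbia, while the A20KO columns reach 1135 to 1178 with near-equal parts of Nfkbia, Nfkbib and Nfkbid.

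Ratios between members inside a library restate the values above and, like the shares, do not depend on its depth. The ratio of Nfkbib to Nfkbia, length-scaled, was 0.167, 0.169 and 0.164 in WT and 0.827, 0.889 and 0.97 in A20KO. Transcripts of these cytoplasmic inhibitors were thus clearly unequal in WT and near each other in A20KO. The ratio of Nfkbid to Nfkbiz was 3.11, 3.5 and 3.2 in WT and 16.2, 13.3 and 13 in A20KO, so Nfkbid dominated the nuclear members more strongly there. The summed classical level was 2.29, 2.25 and 2.2 times the summed nuclear level in WT and 1.52, 1.29 and 1.5 times it in A20KO. Without division by gene length this ratio averaged 1.33 in WT and 1.08 in A20KO, against 2.25 and 1.44 with it. The sum of the classical genes stood at 23.7% of WT and that of the nuclear genes at 37.2%, sums that are led by Nfkbia and Nfkbid. The 3 ratios separated the genotypes without overlap. They are built from the members' own values and add no separate evidence, and no test was run on them.

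Most genes of the NF-kB subunits that IkB proteins bind were also lower, with changes of under 1 log2 unit. Of 5 NF-kB subunit genes 4 fell and none rose, and their median change was -0.7 on the log2 scale. Over all tested genes 19.6% passed as lower and 20.3% as higher, and the subunit list was not tested against these shares. Nfkb1, whose product p105 is an ankyrin-repeat precursor of p50, had normalized read counts of 4589.9, 4247 and 4589 in WT and 2331, 2379 and 2409 in A20KO (log2 fold change -0.91, SE 0.0411, limma adjusted p = 8.9e-29). Nfkb2, the gene of the p100 precursor of p52, fell by 0.84, Relb by 0.7 and Rel by 0.37 on the log2 scale. Rela, the main activating subunit, had 1042 ± 10.9 and 1091 ± 34.1 normalized reads (log2 fold change 0.07, limma adjusted p = 0.39). The machinery that degrades classical IkBs went both ways, with 3 of 8 genes higher, 2 lower and a median of 0.08. That stands beside 20.3% higher and 19.6% lower over all tested genes, and the list was not tested against these shares. Chuk, the gene of IKK-alpha, fell by 0.33 and Fbxw11, a ubiquitin ligase subunit that recognises phosphorylated IkB, fell by 0.25. The ligase genes Skp1a and Rbx1 rose by 0.47 and 0.48. Cul1 rose by 0.13 (limma adjusted p = 0.022), a call lost without WT replicate 2 (adjusted p = 0.053), A20KO replicate 1 (0.083) or A20KO replicate 3 (0.099), and with limma's trend and robust options both left off (0.14). Ikbkb and Ikbkg, the other IKK subunits, had log2 fold changes of 0.03 and 0.12 (limma adjusted p = 0.7 and 0.19).

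Other feedback genes of the pathway fell in 8 of 12 cases and rose in 1 (median log2 fold change -0.43), against 19.6% lower and 20.3% higher over all tested genes. The list was not tested against these shares. Tnfaip3 itself, the targeted gene, had a normalized read count of 403 ± 30 in WT and 193 ± 3.42 in A20KO, so its RNA was reduced but present; a whole-gene count does not show which part was edited. Traf1, an adaptor and NF-kB target, had normalized read counts of 135, 121 and 110 in WT and 16.6, 17.6 and 15.8 in A20KO (log2 fold change -2.8, SE 0.235, limma adjusted p = 4.1e-16). Tnip1 and Tnip3, genes of A20-binding inhibitors, fell by 1.29 and 0.82 on the log2 scale. Otulin, encoding a deubiquitinase of linear chains, was the gene that rose, by 0.36. Otulin and Rbx1 are both chromosome 15 genes, and of the 662 genes tested there 355 rose and 47 fell (median log2 fold change 0.38). Birc3 fell by 0.27 (limma adjusted p = 0.0084), a call lost without WT replicate 1 (0.079), without A20KO replicate 2 (0.1) and with both of those options left off (0.1).

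Of 4 genes whose products act on the stability of Nfkbiz or similar mRNAs 1 fell and 1 rose (median log2 fold change -0.04), the fall being that of Zc3h12a, which is also counted among the 8 feedback genes above. These counts are near the shares over all tested genes, 19.6% lower and 20.3% higher. Zc3h12a, the gene of the endonuclease Regnase-1, which cleaves Nfkbiz mRNA, had normalized read counts of 1378, 1284 and 1320.4 in WT and 208, 146 and 140 in A20KO (log2 fold change -3.03, SE 0.113, limma adjusted p = 2.1e-14). Arid5a, whose RNA-binding product is known to stabilise inflammatory mRNAs, had 13.6, 20 and 6.29 in WT and 59.5, 60.6 and 71.4 in A20KO (log2 fold change 2.31, SE 0.314, limma adjusted p = 7.0e-09). Rc3h1 and Rc3h2, which encode the Roquin proteins, had log2 fold changes of -0.03 and -0.05 (limma adjusted p = 0.7 and 0.61). So both the Nfkbiz transcript and that of the enzyme that degrades it were lower in every A20KO library.

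Of 7 genes known to need IkB-zeta in mouse macrophages 4 were tested and 3 fell (median log2 fold change of the 4, -2.71), against 19.6% of all tested genes. The list was chosen with earlier results of these data known and was not tested against this share. Lcn2, which encodes the iron-scavenging lipocalin 2, had normalized read counts of 1912, 1832 and 1821 in WT and 115, 108 and 108 in A20KO (log2 fold change -4.06, SE 0.0806, limma adjusted p = 1.1e-47). Cebpd, a transcription factor gene, had 528, 452 and 452 in WT and 195, 187 and 175 in A20KO (log2 fold change -1.35, SE 0.0995, limma adjusted p = 1.5e-18). Csf3, the gene of the granulocyte growth factor, was read 347 times over the WT libraries and 4 times over the A20KO libraries (limma adjusted p = 5.2e-19). Edn1, with 6 and 1 reads, missed the threshold (limma adjusted p = 0.27), and Il6, Il12b and Csf2 were not analysed here. Of 9 cytokine genes linked to p50 and atypical IkBs 6 were tested, of which 2 fell and 1 rose (median log2 fold change -0.13). Over all tested genes 19.6% passed as lower and 20.3% as higher, and the list was not tested against these shares. Tnf had a normalized read count of 2562 ± 25.6 in WT and 483 ± 31.7 in A20KO (log2 fold change -2.41, limma adjusted p = 1.8e-43). Cxcl2 was read 422 times over the WT libraries and 8 times over the A20KO libraries (limma adjusted p = 2.2e-21). Il23a rose from 4 reads to 32 (limma adjusted p = 0.0011), and Ccl2, with 903 ± 34.8 and 863 ± 47 normalized reads, did not pass (limma adjusted p = 0.44).

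**Figure D4:**
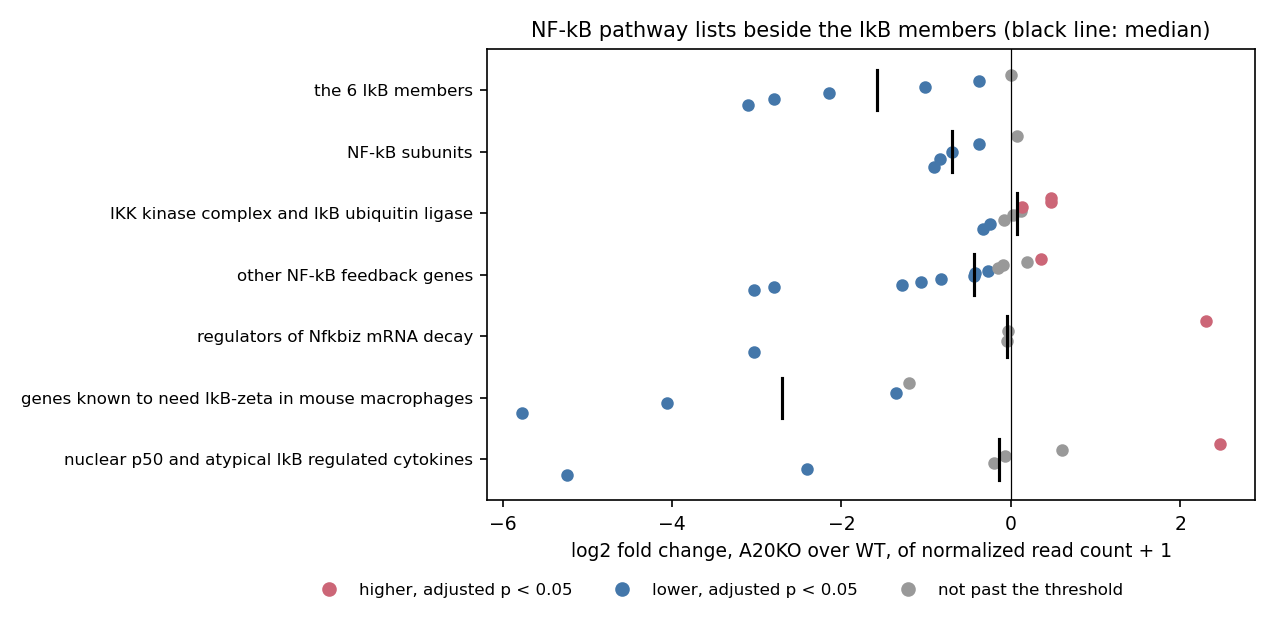
Log2 fold change, A20KO over WT (x axis), of each tested gene in the 6 IkB members and in 6 pathway lists (rows), coloured by whether the gene passed at an adjusted p under 0.05, with the median as a black line. The IkB members have a median of -1.58, while the NF-kB subunits have a median of -0.7 and the kinase and ligase genes one of 0.08.

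The genes whose profile over the 6 libraries lay closest to each member were found by the mean absolute difference of log2 values, each relative to its WT mean. Candidates were 9646 other tested genes with a mean of at least 50 (9647 for Nfkbie, which is below that mean itself). Genes with the symbol of a predicted gene were left out. Nfkbia was closest to Traf1 (mean difference 0.107 log2 units) and Fhod3 (0.112). Nfkbiz was closest to C3, the gene of the central complement protein, which had a normalized read count of 3030 ± 41.8 in WT and 354 ± 22.9 in A20KO (mean difference 0.0585), and to Trem3 (0.105). Bcl3 was closest to Selplg, the gene of the selectin ligand PSGL-1 (0.0483), and Ahnak2 (0.0572). Nfkbid was closest to Arhgef1 (0.0201) and Cntnap1 (0.0235), Nfkbib to Mex3d (0.0212) and Sike1 (0.0244), and Nfkbie to Neurl4 (0.042) and Ifit2 (0.0452). With 2 genotypes, this measure is set mostly by the fold change.

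The other tested genes of chromosomes 12, 7, 17 and 16 had median log2 fold changes of -0.05, -0.01, 0.01 and -0.04. On chromosome 12, which holds Nfkbia, 88 of 643 other tested genes rose and 133 fell, and on chromosome 16, which holds Nfkbiz, 95 of 529 rose and 129 fell. On chromosome 7 the counts were 238 and 283 of 1360, and on chromosome 17 they were 166 and 165 of 882. Among the nearest tested genes, Psma6, a proteasome subunit gene 70955 bases from Nfkbia, fell by 0.66 on the log2 scale, and Nxpe3, 1053 bases from Nfkbiz, fell by 0.27. Slc35b2, 704 bases from Nfkbie, rose by 0.45. Aplp1, 6235 bases from Nfkbid, fell by 1.37, from 58.9 ± 9.17 to 22.2 ± 4.25 normalized reads. Cblc, 11652 bases from Bcl3, averaged 6 normalized reads in WT and 0.676 in A20KO (limma adjusted p = 0.013), a call lost without WT replicate 3 (0.088) or A20KO replicate 1 (0.057) and with DESeq2 (0.077). Of the remaining neighbours Sars2, Rinl, Aars2, Hcst, Gm36634, Gm19345 and AC125028.1, none passed. Among all tested genes 39.8% passed in either direction, 20.3% as higher and 19.6% as lower. Neither the chromosomes nor the neighbours were tested against these shares.

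Library totals were 13308840 to 15130697 reads. Of 8 macrophage markers every one but Mertk was read in both lines, and their summed level was 23171 to 23706 normalized reads in WT and 20915 to 21298 in A20KO. Adgre1, the gene of F4/80, had 2580.4 ± 15.7 and 2591 ± 15.4, while Mertk had no read in WT and averaged 12.4 normalized reads in A20KO. Other macrophage markers moved in both directions: Fcgr1 and Csf1r rose by 2.58 and 1.1 on the log2 scale, and Cd14, Itgam and Lyz2 fell by 0.81, 0.77 and 0.57. Cd68 fell by 0.15 (limma adjusted p = 0.002), a call lost with limma's trend and robust options both left off (0.11). Of markers of other cell types, the summed B cell level was 138 to 185 in WT and 64.4 to 79.8 in A20KO, nearly all from Cd79b, the neutrophil level was 101 to 134 and 35.2 to 53.6, nearly all from S100a8, and the dendritic cell level was 35.9 to 42.9 and 72.5 to 84.9, mostly from Zbtb46. The fibroblast and epithelial levels did not exceed 3.15 normalized reads in any library, and the T cell markers were not analysed here. Of 4 markers listed per type, the sums used 2 for B cells, 2 for neutrophils and 3 for dendritic cells. They used 2 for fibroblasts and 1 for epithelium. The marker shifts ran alongside the changes of the IkB genes and their part in them was not tested. In RNA from bulk cultures, fewer cells expressing a gene and less RNA per cell cannot be told apart.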

How the data were processed

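RNA of 3 WT and 3 A20KO samples, grouped by their titles, was extracted with Trizol and sequenced after use of a SMARTer kit, per the labels' protocols. Per the submitters' processing notes reads were placed on mm10; the aligner, counter, strand use and annotation were not named in the labels or headers. The authors deposited a normalized signal per gene and library, with group means, a log2 fold change, p-values with adjusted p-values, and gene length, per the file headers. Dividing by the value of 1 read gave whole numbers for 100% of entries (within 0.001 reads), so the signal is a read count over a size factor, and whole reads were recovered. Gene lengths of the members equalled their summed exons in GENCODE M21.

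The 17376 genes averaging 1 or more were transformed as log2(value + 1) and tested with limma 3.58.1 (trend, robust) in R 4.3.3, with a threshold of 0.05; the fold change of low genes is understated on this scale. On the recovered reads edgeR 4.0.16 called 6686 of 12656 genes; limma-voom and DESeq2 1.42.0 were further alternatives. Replicates differed by more than sampling noise (chi-square per degree of freedom 2.67 to 3.6), so each library was counted once. In a simulation with few changed genes (17335 tested) the procedure called 38%, 60%, 78% and 98% of 50 genes each changed 1.25-, 1.5-, 2- and 4-fold, with 11 calls among unchanged genes. In the data 6917 of 17376 genes were called. The adjusted threshold was therefore stricter in the simulation, and its rates do not give the rates of detection in the data.

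The members, the 6 pathway lists and the naming rule (members, up to 4 genes a list by smallest adjusted p, the 2 closest profiles and the nearest neighbours; Cul1, Birc3, Otulin, Ikbkb, Ikbkg and genes that complete short lists were added after their values were seen) were chosen with earlier results of these data known. In the authors' deposited table the members' log2 fold changes are -2.8 (Nfkbia), -0.38 (Nfkbib), -0.01 (Nfkbie), -1.0 (Nfkbid), -3.11 (Nfkbiz) and -2.15 (Bcl3). Members shared at most 0.298% of their 31-base words with other genes.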

Additional observations from a re-analysis of the deposited data

How the results depend on the processing

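Under 18 alternatives (other pseudocounts, filters, normalizations, variance models and count tests, a replicate block, and leaving out each library), Nfkbia, Nfkbib, Nfkbid, Nfkbiz and Bcl3 kept their direction and stayed past the threshold. Their log2 fold changes ranged from -2.86 to -2.76, -0.42 to -0.33, -1.04 to -0.98, -3.18 to -3.0 and -2.2 to -2.08, and the largest adjusted p was 0.012, for Nfkbib. Nfkbid therefore crosses a 2-fold limit with the setting. Nfkbie never passed. Its log2 fold change was 0.001 with limma-voom, and -0.12 to 0.1 when a library was left out, the sign changing without WT replicate 2 (0.1), WT replicate 3 (0.02) or A20KO replicate 3 (0.06); the cause was not tested. Without division by gene length the share of Nfkbia was 46.1% in WT and 22.8% in A20KO and the classical to nuclear ratio 1.33 and 1.08. Nfkbia is the shortest of the 6 genes (1610 bases) and Nfkbiz the longest (5018 bases), and their parts in these shifts were not separated. The count of genes called was 5014 with limma's trend and robust options both left off, against 6917, and 6214 to 6515 when a library was left out. The values showed no sign of pairing by replicate number (correlations of same-numbered libraries -0.075 to -0.026, of other pairs -0.041 to 0.076). This cannot show whether same-numbered libraries were handled together. The fit with a replicate block called 6729 genes and changed no call of a member, and in that fit Nfkbia had a log2 fold change of -2.8. Depth limits Nfkbie, with 134 reads in the WT libraries and 132 in the A20KO libraries together.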
